A study of Homo sapiens with 6 samples.

Results

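Integrins, laminins and collagens are the receptors and main building blocks through which epithelial cells hold on to the extracellular matrix. An integrin is a pair of 1 alpha and 1 beta subunit in the cell membrane, a laminin is a cross-shaped trimer of alpha, beta and gamma chains in the basement membrane, and a collagen is a triple helix of chains that forms fibrils, networks or, for a few types, a membrane anchor. In pancreatic cancer the dense matrix is known to come largely from stromal cells, while the tumour cells carry the laminins and the integrins that bind them. The genes described here are the records of the expression table named as integrin alpha or beta subunits, laminin chains or collagen chains that reached 1 FPKM (fragments scaled to transcript length and library depth) in at least 1 of 6 libraries. Of 79 records with such names, 38 reached that level and 41 did not, among 33097 records in all and 14582 that reached it. The 38 were 9 integrin alpha subunits, 6 integrin beta subunits, 8 laminin chains and 15 collagen chains. They were chosen by their measured FPKM in these libraries, so their levels are given as a description.

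CFPAC and KP3 are human cell lines established from pancreatic cancers. Each was given siRNA against the kinase NEK7, siRNA against the related kinase NEK6, or a control siRNA, whose libraries are tagged WT. There was 1 library for each line and siRNA, so no condition had a replicate, and the labels give no dose or time of the siRNA treatment. CFPAC stood against KP3 with 3 libraries each, 1 per siRNA, and each siRNA stood against control with 1 library in each line. Values of a line are listed below in the order NEK7 siRNA, NEK6 siRNA, control siRNA.

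Library totals ran from 59478910 to 66067379 counts. NEK7 was left at 16.2% of its control FPKM in CFPAC and 39.5% in KP3 with NEK7 siRNA, and NEK6 at 26.9% in CFPAC and 32.8% in KP3 with NEK6 siRNA. Of 8 markers of pancreatic duct epithelium, 7 were analysed here and 7 of these reached 1 FPKM in both lines, with KRT19 at 335 to 396 FPKM in CFPAC and 644 to 729 in KP3. KRT7 was the lowest of them and near that level, at 0.989 to 1.67 FPKM in CFPAC and 0.817 to 1.08 in KP3. Of 8 markers of fibroblasts and stellate cells, 4 reached 1 FPKM in CFPAC and 2 in KP3, and their summed FPKM ran from 329 to 350.2 in CFPAC and from 107 to 135 in KP3. The matrix proteoglycan LUM had 96.8 to 143 FPKM in CFPAC and 0.637 to 0.682 in KP3, and DCN 7.07 to 9.56 and 0.144 to 0.189. VIM had 172 to 231 FPKM in CFPAC and 101 to 130 in KP3. ACTA2 ran the other way, at 1.89 to 3.44 FPKM in CFPAC and 4.36 to 5.28 in KP3. The fibroblast markers FAP and THY1 stayed under 0.1 FPKM in every library. Endothelial markers reached 1 FPKM in 0 of 4 cases in either line, with CDH5 and KDR at 0 in CFPAC. Of 5 leukocyte markers 3 in CFPAC and 1 in KP3 did, with CD68 highest at 47.5 to 76.9 FPKM over all libraries, while PTPRC had 0 counts in 4 of 6 libraries and CD3E in 3 of 6. Of 4 hepatocyte markers, 3 were analysed here, of which 1 reached 1 FPKM in CFPAC and 0 in KP3.

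The comparison of CFPAC with KP3, which the series' design text names, found 30 of the 38 genes different, 13 higher and 17 lower in CFPAC. The test was edgeR's quasi-likelihood test on counts with the siRNA as a block, adjusted over all genes tested (Benjamini-Hochberg) with a threshold of 0.05. By that test 56.4% of all 14582 genes differed between the lines, 29.3% higher and 27.1% lower in CFPAC. Of the 38, 10 reached 1 FPKM in CFPAC alone (ITGA5, ITGA2, ITGA1, ITGB6, ITGB2, LAMA4, COL5A3, COL5A2, COL9A3 and COL28A1) and 4 in KP3 alone (ITGA7, COL4A5, COL4A6 and COL12A1). These 14 were chosen through the line where they are high, so their direction was fixed by the choice and their calls are given as a description. Among the 24 that reached it in both lines, 3 were higher and 13 lower in CFPAC and 8 did not pass, beside 26.7% higher and 26.7% lower (53.4% in all) of the 11204 such genes in the table. All CFPAC libraries lay above all KP3 libraries for 13 of the 38 and below them for 17, beside 31.2% and 33% of all genes, and the ranges of the other 8 overlapped. All 30 also passed by DESeq2, which called 62.5% of all genes. Within bulk samples, fewer cells of a type and less RNA per cell cannot be told apart.

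**Figure D1:**
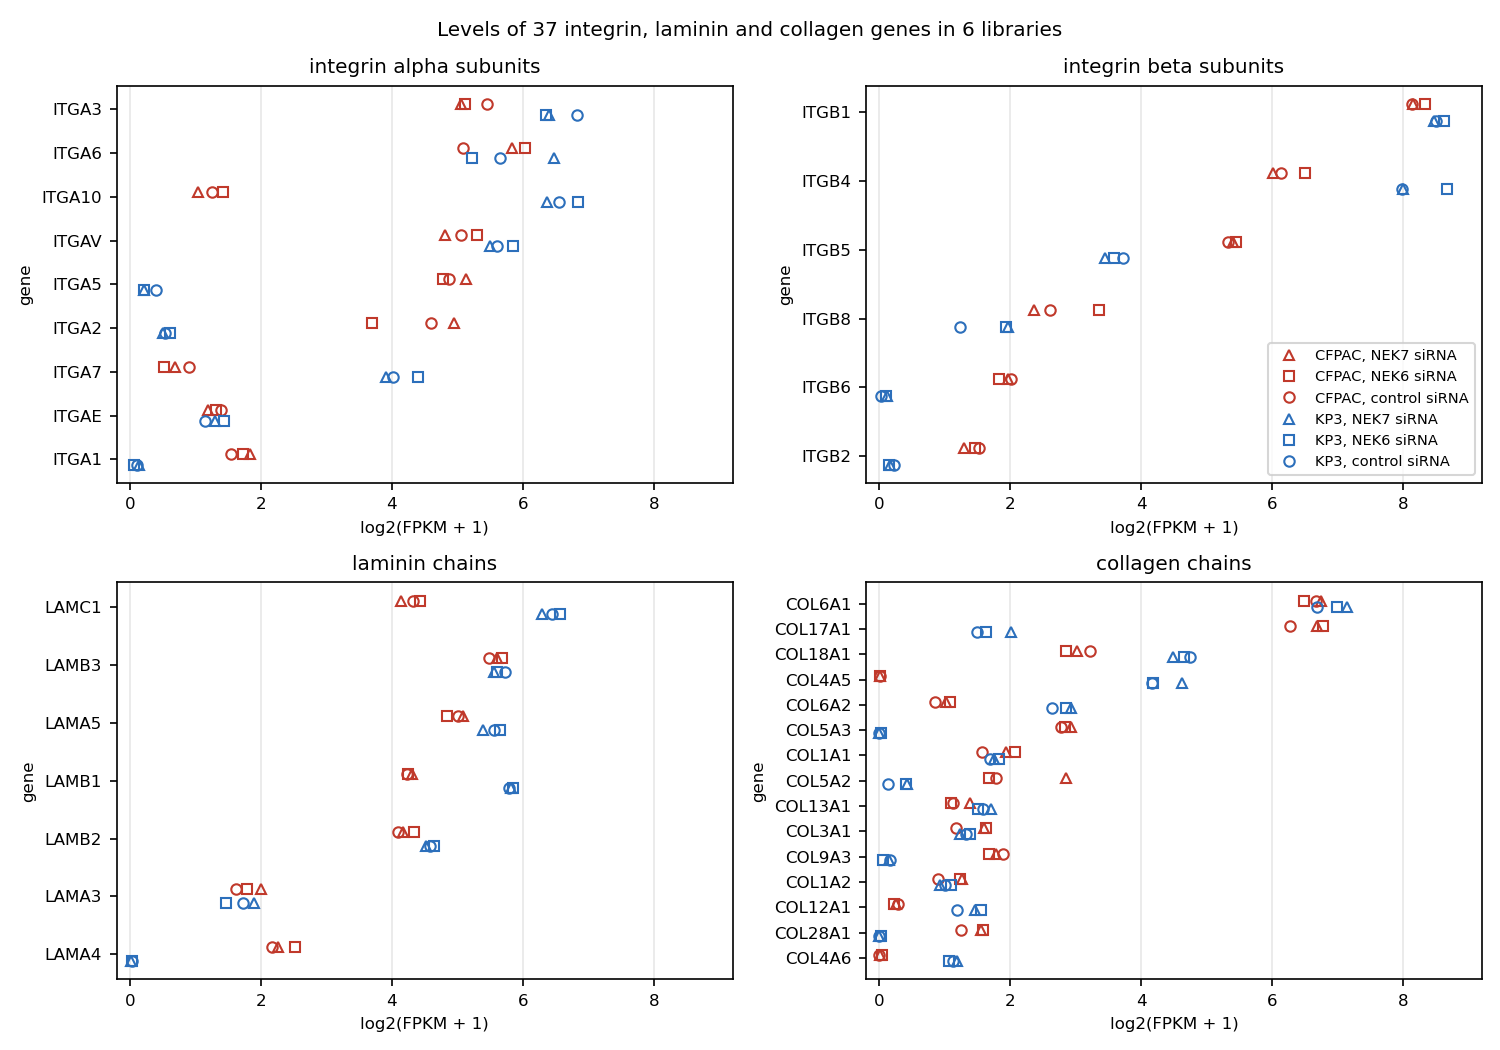
Levels of 37 of the genes as log2(FPKM + 1), by role, with CFPAC libraries in red and KP3 libraries in blue and 1 symbol per siRNA. ITGB1, at 279 to 391 FPKM over the 6 libraries, is highest in all but the KP3 NEK6 siRNA library, where ITGB4 has 404, and COL17A1 and ITGA10 show gaps between the lines.

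The alpha subunits, which set what an integrin binds, differed most in the receptors for collagen and fibronectin. ITGA5, the fibronectin receptor's alpha subunit, had 33.9, 26.4 and 28.2 FPKM in CFPAC, against 0.164, 0.159 and 0.322 in KP3. ITGA2, an alpha subunit of collagen receptors, had 30, 12 and 23.1 FPKM in CFPAC, against 0.426, 0.528 and 0.458 in KP3. ITGA1, another collagen receptor subunit, was low in CFPAC at 2.58, 2.31 and 1.93 FPKM and lower in KP3 at 0.104, 0.0463 and 0.083. In all 3 the CFPAC libraries lay above every KP3 library, with edgeR log2 fold changes of 7.14 (SE 0.31, adjusted p = 0.000172) for ITGA5, 5.48 (SE 0.38, adjusted p = 0.00049) for ITGA2 and 4.96 (SE 0.29, adjusted p = 0.000314) for ITGA1. All 3 reached 1 FPKM in CFPAC alone, so their direction was fixed by the choice and these values are a description.

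ITGA10, a collagen-binding alpha subunit known best from cartilage, ran the other way. It had 1.06, 1.67 and 1.39 FPKM in CFPAC, against 81.4, 114 and 93.1 FPKM in KP3, a log2 fold change of -6.09 (SE 0.12, edgeR adjusted p = 9.66e-05). It made up 0.576% to 0.923% of the summed alpha subunit FPKM in CFPAC and 26% to 36.7% in KP3. ITGA7, a laminin receptor subunit known best from muscle, had 0.619, 0.438 and 0.878 FPKM in CFPAC, against 14, 20.1 and 15.2 in KP3 (log2 fold change -4.64, SE 0.32, edgeR adjusted p = 0.000494). Among collagen-binding alpha subunits, ITGA2 and ITGA1 were higher in CFPAC and ITGA10 in KP3. ITGA2 and ITGA1 were chosen through CFPAC alone and ITGA7 through KP3 alone, so their direction was fixed by the choice.

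The laminin-binding subunits ITGA3 and ITGA6 and the RGD-binding ITGAV were high in both lines. ITGA3 had 32.2, 33.7 and 42.9 FPKM in CFPAC, against 83.4, 80.5 and 113 in KP3, and ITGAV 26.9, 38.5 and 32.1 FPKM in CFPAC, against 44.1, 56.7 and 47.8 in KP3. Both were lower in CFPAC, with log2 fold changes of -1.30 (SE 0.09, edgeR adjusted p = 0.000486) for ITGA3 and -0.57 (SE 0.09, edgeR adjusted p = 0.00527) for ITGAV. ITGA6 had 56.2, 64.6 and 33 FPKM in CFPAC and 87.6, 36.4 and 49.1 in KP3, ranges that overlapped, and did not pass (log2 fold change -0.09, SE 0.32, edgeR adjusted p = 0.827). Without either NEK6 siRNA library it did pass as lower in CFPAC, with log2 fold changes of -0.57 without the CFPAC library and -0.56 without the KP3 library. ITGAE, the alpha subunit that binds E-cadherin, ranged from 1.3 to 1.64 FPKM in CFPAC and 1.21 to 1.7 in KP3 and did not pass (edgeR adjusted p = 0.801).

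All 6 beta subunits differed between the lines, 4 higher and 2 lower in CFPAC, beside the 56.4% of all genes given above, and ITGB6 and ITGB2 were chosen through CFPAC alone. ITGB1, the common partner of most alpha subunits here, had 282, 321 and 279 FPKM in CFPAC and 351, 391 and 359.9 in KP3, a small difference (log2 fold change -0.28, SE 0.09, edgeR adjusted p = 0.0411) that did not pass when any 1 of the 6 libraries was left out (adjusted p 0.0654 to 0.213). ITGB4, which pairs with ITGA6 and anchors hemidesmosomes, had 63.6, 89.4 and 69.3 FPKM in CFPAC, against 254, 404 and 251 in KP3 (log2 fold change -1.97, SE 0.11, edgeR adjusted p = 0.000278). As a share of summed beta subunit FPKM, ITGB4 took 16.1% to 19.1% in CFPAC and 40.2% to 49.9% in KP3, and ITGB1 68.8% to 71.3% in CFPAC and 48.3% to 57.6% in KP3.

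Of the beta subunits known to pair with ITGAV, ITGB5, ITGB6 and ITGB8 were higher in CFPAC, while ITGB1, which can pair with it too, was lower. ITGB5 had 41.1, 42.8 and 39 FPKM in CFPAC, against 9.9, 11.1 and 12.2 in KP3 (log2 fold change 1.94, SE 0.11, edgeR adjusted p = 0.000323). ITGB8 had 4.16, 9.2 and 5.11 FPKM in CFPAC, against 2.9, 2.82 and 1.36 in KP3 (1.43, SE 0.30, edgeR adjusted p = 0.0132), and did not pass without either NEK6 siRNA library (adjusted p 0.0709 without that of CFPAC and 0.0734 without that of KP3). ITGB6, an epithelial subunit that with ITGAV activates latent TGF-beta, had 2.89, 2.55 and 3.03 FPKM in CFPAC, against 0.0847, 0.0729 and 0.0171 in KP3. Its counts summed to 3604 in CFPAC and 78 in KP3, a CFPAC over KP3 ratio at equal depth of 47 (95% interval 37.5 to 59.6 from counting error alone; edgeR adjusted p = 0.00112). ITGB2, the leukocyte integrin subunit, had 1.46, 1.76 and 1.88 FPKM in CFPAC, against 0.117, 0.113 and 0.172 in KP3 (3.71, SE 0.23, edgeR adjusted p = 0.000377). Of its alpha partners, ITGAL, ITGAM and ITGAX were among the names searched and all stayed below 1 FPKM. ITGAM, at 0.204 to 0.314 FPKM in CFPAC and 0.764 to 0.798 in KP3, was the highest of those named.

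**Figure D2:**
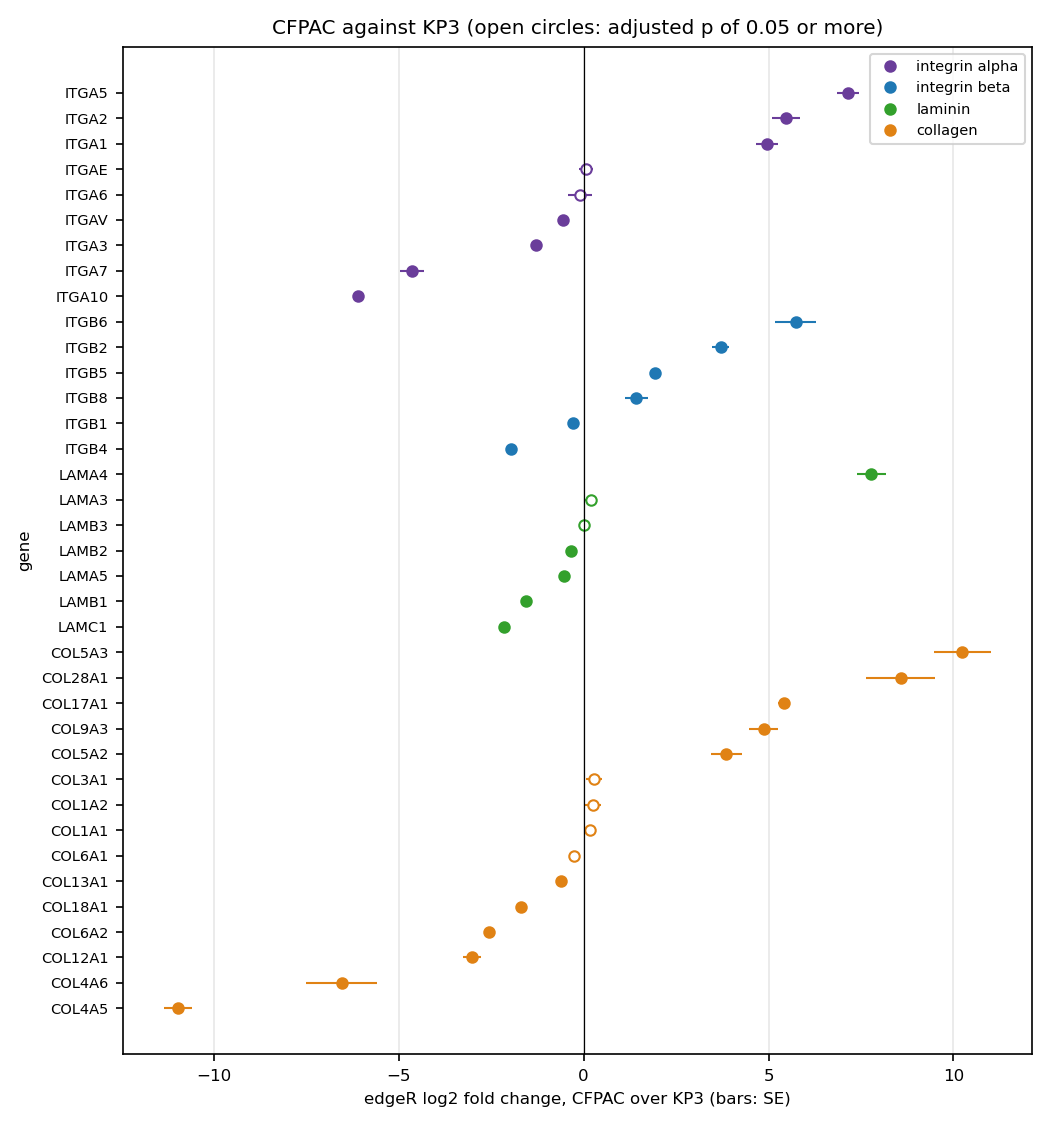
The edgeR log2 fold change of CFPAC over KP3 for 37 of the genes with its SE, ordered within each role, with filled circles for genes that passed the adjusted threshold of 0.05. COL5A3 at 10.24 and COL4A5 at -10.97 are the extremes, and 8 open circles lie near 0.

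Of the 8 laminin chains, 5 were lower in CFPAC, 1 was higher and 2 did not pass. LAMB3, a beta chain of epithelial laminin, had 47.7, 50.4 and 43.8 FPKM in CFPAC and 46.1, 47.5 and 51.7 in KP3 (log2 fold change 0.01, SE 0.10, edgeR adjusted p = 0.941), and LAMA3, an alpha chain of epithelial laminin, 3.01, 2.47 and 2.08 in CFPAC and 2.73, 1.77 and 2.32 in KP3 (0.20, SE 0.15, edgeR adjusted p = 0.309). The ranges of the lines overlapped for both, and LAMA3 was below LAMB3 in every library.

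The chains of the common basement membrane laminins were lower in CFPAC. LAMC1 had 16.7, 20.5 and 19.1 FPKM in CFPAC, against 77.6, 93.9 and 86.3 in KP3 (log2 fold change -2.15, SE 0.09, edgeR adjusted p = 0.000161). LAMB1 had 18.8, 17.9 and 17.8 FPKM in CFPAC, against 55.4, 56.9 and 54.1 in KP3 (-1.57, SE 0.09, edgeR adjusted p = 0.000299). LAMA5 had 32.8, 27.6 and 31.2 FPKM in CFPAC, against 41.2, 49.1 and 46.2 in KP3 (-0.53, SE 0.12, edgeR adjusted p = 0.0181), and LAMB2 17, 19.1 and 16 in CFPAC, against 21.9, 23.9 and 23 in KP3 (-0.35, SE 0.09, edgeR adjusted p = 0.0264). LAMA5 did not pass without the control or the NEK6 siRNA library of either line (adjusted p 0.052 to 0.0607), and LAMB2 did not pass without any 1 of the 6 (0.055 to 0.134).

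LAMA4, an alpha chain known best from vessels and mesenchymal tissue, was the laminin chain higher in CFPAC, the line through which alone it was chosen. It had 3.77, 4.75 and 3.48 FPKM there, against 0.00805, 0.0189 and 0.0283 in KP3. Its counts summed to 10635 in CFPAC and 52 in KP3, a ratio of 208 at equal depth (95% interval 158 to 278 from counting error; edgeR adjusted p = 0.000252). LAMA1, LAMA2, LAMB4 and LAMC3 stayed below 1 FPKM, LAMA2 just so, at 0.488 to 0.836 in CFPAC and 0.12 to 0.237 in KP3.

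Of the 15 collagen chains, 5 were higher in CFPAC, 6 were lower and 4 did not pass. Of the 5, 4 were chosen through CFPAC alone, and of the 6, 3 through KP3 alone, which leaves COL17A1 as higher and COL18A1, COL6A2 and COL13A1 as lower among chains that reached 1 FPKM in both lines. COL17A1, the membrane-spanning collagen of hemidesmosomes, had 102, 109 and 76 FPKM in CFPAC, against 3.05, 2.11 and 1.82 in KP3 (log2 fold change 5.42, SE 0.17, edgeR adjusted p = 0.00011). It took 37.4% to 48.2% of summed collagen FPKM in CFPAC and 1.14% to 1.49% in KP3. Thus among genes of the hemidesmosome, COL17A1 was higher in CFPAC while ITGB4 was lower and ITGA6 did not pass. PLEC and DST, which link hemidesmosomes to keratin, were among the matrix and hemidesmosome partners counted below.

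COL18A1, a basement membrane collagen whose fragment is endostatin, had 7.1, 6.21 and 8.3 FPKM in CFPAC, against 21.5, 24.3 and 25.7 in KP3 (log2 fold change -1.69, SE 0.12, edgeR adjusted p = 0.000486). COL12A1, a fibril-associated chain, had 0.19, 0.172 and 0.221 FPKM in CFPAC, against 1.74, 1.92 and 1.28 in KP3 (-3.02, SE 0.25, edgeR adjusted p = 0.000747). It was chosen through KP3 alone, so its direction was fixed by the choice. COL13A1, a membrane-spanning chain, had 1.61, 1.14 and 1.18 FPKM in CFPAC, against 2.26, 1.84 and 2.01 in KP3 (-0.60, SE 0.13, edgeR adjusted p = 0.0154), and did not pass without the control or the NEK6 siRNA library of either line (adjusted p 0.0575 to 0.0801).

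The chains of collagen VI, a beaded-filament collagen made from an equal number of its alpha chains, stood at unequal levels. COL6A1 had 106, 88.8 and 100.3 FPKM in CFPAC and 140.0, 126 and 101 in KP3, and did not pass (log2 fold change -0.26, SE 0.13, edgeR adjusted p = 0.139). COL6A2 had 1.02, 1.12 and 0.804 FPKM in CFPAC, against 6.58, 6.21 and 5.24 in KP3 (-2.57, SE 0.14, edgeR adjusted p = 0.000271). COL6A3 stayed below 1 FPKM, at 0.262 to 0.423 in CFPAC and 0.164 to 0.224 in KP3. COL6A1 thus exceeded COL6A2 by 79.1 to 125 times in CFPAC and by 19.4 to 21.3 times in KP3, per length.

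**Figure D3:**
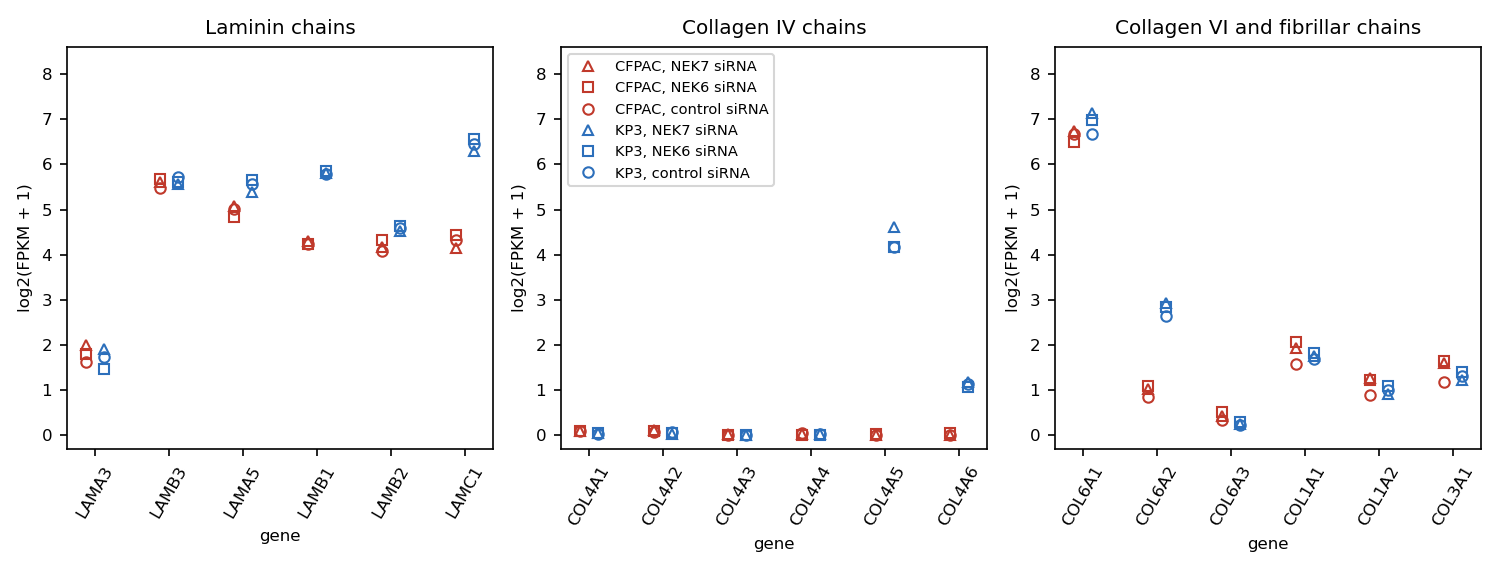
Levels as log2(FPKM + 1) of laminin chains, all 6 collagen IV chains, and collagen VI and fibrillar chains, with CFPAC in red and KP3 in blue. LAMB1 and LAMC1 separate the lines where LAMB3 and LAMA3 do not, and of the collagen IV chains COL4A5 and COL4A6 alone rise above 1 FPKM, in KP3.

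Collagen IV, the network-forming collagen of basement membranes, is made of chains from 6 genes that lie as 3 head-to-head pairs. COL4A5 had 0.0055, 0.0143 and 0.00419 FPKM in CFPAC, against 23.5, 17 and 16.9 in KP3, and its counts summed to 24 in CFPAC and 51801 in KP3. COL4A6 had 0.0108, 0.0324 and 0 FPKM in CFPAC, against 1.27, 1.1 and 1.19 in KP3, on sums of 32 and 2517 counts. At equal depth the ratio of KP3 over CFPAC was 2124 for COL4A5 (95% interval 1427 to 3315 from counting error; edgeR adjusted p = 0.000126) and 77.4 for COL4A6 (54.7 to 113; edgeR adjusted p = 0.00398). COL4A5 and COL4A6 reached 1 FPKM in KP3 alone, so their direction was fixed by the choice and these values are a description. The pair COL4A1 and COL4A2, which makes the common network, stayed below 0.1 FPKM in every library, with at most 83 counts for COL4A1 and 125 for COL4A2. COL4A3 and COL4A4 stayed below 0.04 FPKM.

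The deposited records put COL4A6 at chromosome X, 108155607 to 108439497 on the minus strand, and COL4A5 at 108439838 to 108697545 on the plus strand, with 340 bases between them. The start regions of this pair, which was detected in KP3, and of the COL4A1 and COL4A2 pair, which was near 0 in both lines, are shown to set their sequences side by side. They run from 250 bases before to 50 after each RefSeq start (GRCh38.p14), 5′ to 3′ on the gene's strand. Capitals mark GC boxes, spelled GGGCGG, on either strand. They also mark CCAAT boxes, named for their letters, and would mark TATA boxes, spelled TATAAA. No marked motif overlapped another. COL4A5 is chrX:108439588-108439887, COL4A6 chrX:108439409-108439708, COL4A1 chr13:110307108-110307407 and COL4A2 chr13:110307034-110307333.
COL4A5: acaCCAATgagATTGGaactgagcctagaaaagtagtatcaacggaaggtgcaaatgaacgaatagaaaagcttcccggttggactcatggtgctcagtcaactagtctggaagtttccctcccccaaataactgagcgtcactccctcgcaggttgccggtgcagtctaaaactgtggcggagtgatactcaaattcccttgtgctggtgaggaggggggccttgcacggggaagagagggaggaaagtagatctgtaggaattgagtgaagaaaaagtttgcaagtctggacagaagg
COL4A6: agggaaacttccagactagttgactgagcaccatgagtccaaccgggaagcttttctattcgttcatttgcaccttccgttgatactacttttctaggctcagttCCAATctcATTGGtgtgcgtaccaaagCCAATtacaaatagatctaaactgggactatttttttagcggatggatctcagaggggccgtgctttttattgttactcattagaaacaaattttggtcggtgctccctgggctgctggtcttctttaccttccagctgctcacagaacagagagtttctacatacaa
COL4A1: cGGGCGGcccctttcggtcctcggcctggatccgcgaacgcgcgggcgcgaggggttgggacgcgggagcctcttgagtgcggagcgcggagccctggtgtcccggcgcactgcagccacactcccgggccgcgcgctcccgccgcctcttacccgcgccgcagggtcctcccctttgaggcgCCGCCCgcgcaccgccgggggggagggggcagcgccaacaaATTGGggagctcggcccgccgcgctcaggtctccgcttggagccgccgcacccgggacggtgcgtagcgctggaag
COL4A2: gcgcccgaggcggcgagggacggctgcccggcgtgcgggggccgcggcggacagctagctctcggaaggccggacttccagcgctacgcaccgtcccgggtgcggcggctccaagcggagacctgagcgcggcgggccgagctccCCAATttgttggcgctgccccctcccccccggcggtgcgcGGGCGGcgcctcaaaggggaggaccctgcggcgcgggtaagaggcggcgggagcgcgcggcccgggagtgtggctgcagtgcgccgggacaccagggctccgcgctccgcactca

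The regions of COL4A5 and COL4A6 share 121 bases, and 2 CCAAT boxes lie in the shared stretch. COL4A6 has 1 more CCAAT box, and neither region shown holds a GC box. The regions of COL4A1 and COL4A2 share 226 bases, with 1 CCAAT box and 1 GC box, and COL4A1 has 1 more GC box outside them. Of the letters, 49.3% and 43.7% are G or C in COL4A5 and COL4A6 and 76.7% and 77.7% in COL4A1 and COL4A2, beside a median of 58.7% over 35116 RefSeq start regions of 300 bases. Of those regions 34.6% hold a CCAAT box, 45% a GC box and 11.5% a TATA box, and 0 TATA boxes were found in the 4 regions shown. A match of letters does not show a site in use. RefSeq start regions were at hand for 27 of the 38 genes, and COL4A6 has a second one further into the gene, not shown, that shares 0 bases with that of COL4A5 and holds 1 GC box and 0 CCAAT boxes.

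Of the fibrillar collagens, COL5A3 and COL5A2 passed, while the chains of the common fibrils, given further below, did not. COL5A3 had 6.62, 6.16 and 5.81 FPKM in CFPAC and 0, 0.0155 and 0 in KP3, on 9282 counts in CFPAC and 8 in KP3 (CFPAC over KP3 ratio 1179 at equal depth, 95% interval 598 to 2732 from counting error; edgeR adjusted p = 0.000583). COL5A2 had 6.26, 2.18 and 2.43 FPKM in CFPAC, against 0.349, 0.324 and 0.0999 in KP3 (log2 fold change 3.86, SE 0.42, edgeR adjusted p = 0.0016). The third chain of collagen V, COL5A1, stayed at 0.0966 to 0.227 FPKM in CFPAC and 0.126 to 0.151 in KP3. The fibril-associated COL9A3 had 2.44, 2.21 and 2.71 FPKM in CFPAC, against 0.114, 0.0381 and 0.118 in KP3 (4.86, SE 0.38, edgeR adjusted p = 0.000669). COL28A1 had 1.93, 2 and 1.38 FPKM in CFPAC and 0, 0.0159 and 0 in KP3, on 2619 and 8 counts (ratio 333, 95% interval 169 to 771; edgeR adjusted p = 0.00168). All 8 KP3 counts of COL5A3 and of COL28A1 were in the NEK6 siRNA library. COL5A3, COL5A2, COL9A3 and COL28A1 reached 1 FPKM in CFPAC alone, so their direction was fixed by the choice and these values are a description.

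COL1A1, COL1A2 and COL3A1, the chains of the common fibrils, stood near 1 to 3 FPKM in both lines and did not pass. COL1A1 had 2.84, 3.19 and 1.97 FPKM in CFPAC and 2.37, 2.56 and 2.22 in KP3 (log2 fold change 0.18, SE 0.15, edgeR adjusted p = 0.333). COL1A2 had 1.4, 1.35 and 0.856 FPKM in CFPAC and 0.895, 1.14 and 1.01 in KP3, and COL3A1 2.04, 2.11 and 1.25 in CFPAC and 1.35, 1.62 and 1.5 in KP3. Their counts kept nearly 1 proportion in every library, with 1.02 to 1.1 COL1A2 counts per COL3A1 count in CFPAC and 1.07 to 1.13 in KP3, and 1.85 to 2.11 COL1A1 counts per COL3A1 count in CFPAC and 1.97 to 2.35 in KP3. LUM and DCN, which stromal cells make with these chains, were far higher in CFPAC as given above, while ACTA2 of the same marker list was lower. The part of other cells or other RNA in these levels was not tested.

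Several of the genes are neighbours, and neighbours did not always differ alike. ITGA1 and ITGA2 lie 30130 bases apart on chromosome 5 and both were higher in CFPAC. COL6A1 and COL6A2 lie 93061 bases apart on chromosome 21, where COL6A2 passed and COL6A1 did not. COL3A1 and COL5A2 lie 19151 bases apart, tail to tail, on chromosome 2, where COL5A2 passed and COL3A1 did not. ITGA1, ITGA2 and COL5A2 were chosen through CFPAC alone, so their direction was fixed by the choice. All 79 matching records overlap GENCODE v29 genes (GRCh38) of the same identifier on the same chromosome and strand.

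The siRNA comparisons asked which of these genes moved with loss of either kinase. None of the 38 passed the edgeR test with NEK7 or NEK6 siRNA, and 0% of all 14582 genes did with either. The genes not called include NEK7 and NEK6 themselves, which their siRNAs left at 16.2% to 39.5% of control FPKM. A gene that did not pass may thus still have changed. At an unadjusted p under 0.05, edgeR had 4 of the 38 with NEK7 siRNA and 3 with NEK6 siRNA, beside 9.41% and 7.36% of all genes. DESeq2 called 1 of the 38 with NEK7 siRNA and 2 with NEK6 siRNA, beside 2.53% and 1.98% of all genes. Both siRNA comparisons use the same control libraries, so their differences are not independent of each other.

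ITGA3 was the gene that DESeq2 called with both siRNAs. In CFPAC it had 32.2 FPKM with NEK7 siRNA and 33.7 with NEK6 siRNA, against 42.9 with control siRNA. In KP3 it had 83.4 and 80.5 FPKM with these siRNAs, against 113 with control siRNA. The edgeR log2 fold change was -0.46 with NEK7 siRNA (SE 0.11, adjusted p = 0.492; DESeq2 adjusted p = 0.00304) and -0.42 with NEK6 siRNA (SE 0.11, adjusted p = 0.572; DESeq2 adjusted p = 0.0113). ITGB4 was called by DESeq2 with NEK6 siRNA (edgeR log2 fold change 0.53, SE 0.13, adjusted p = 0.54; DESeq2 adjusted p = 0.00936), on 89.4 FPKM against 69.3 with control siRNA in CFPAC and 404 against 251 in KP3. With NEK7 siRNA its CFPAC value was 63.6 FPKM and its KP3 value 254.

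**Figure D4:**
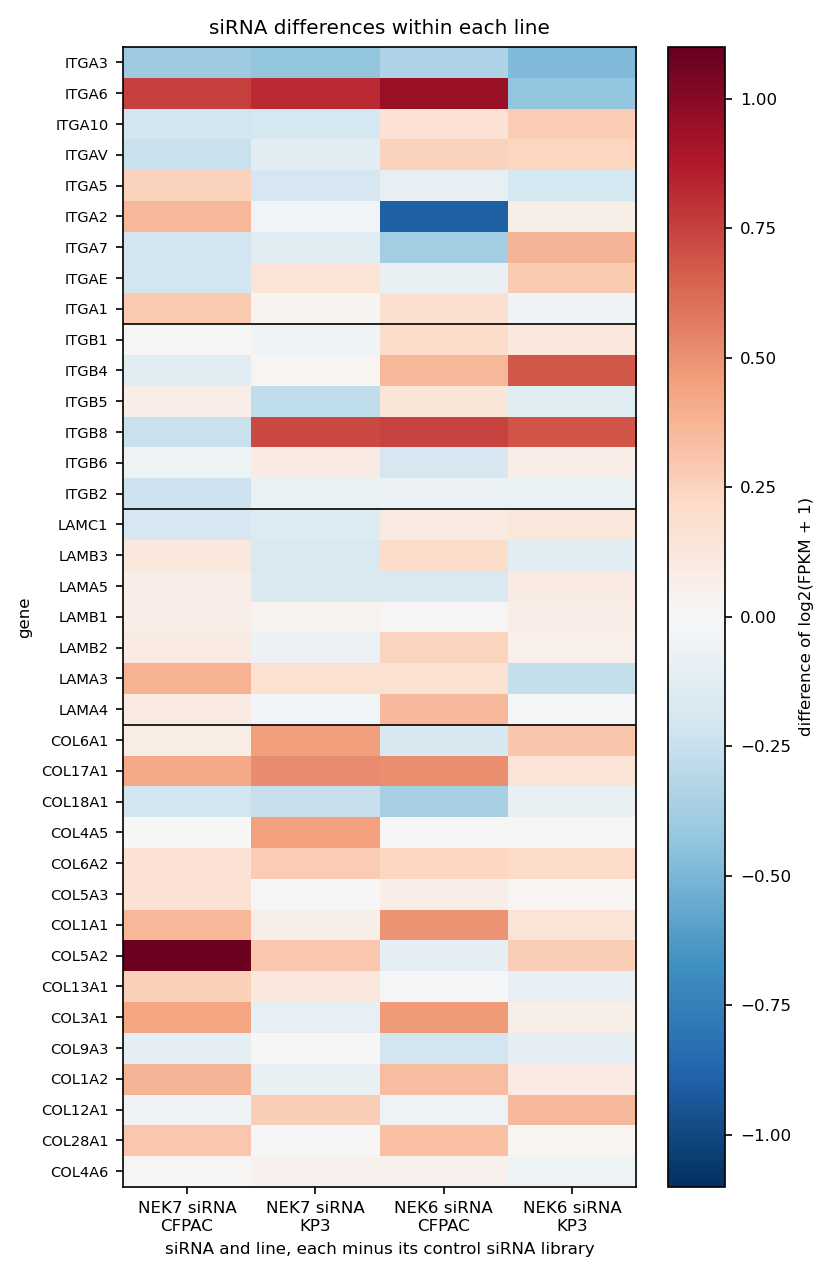
Difference of log2(FPKM + 1) between each siRNA library and the control siRNA library of its line for 37 of the genes, with red for higher and blue for lower with the siRNA and black lines between the roles. ITGA6 runs from 0.95 with NEK6 siRNA in CFPAC to -0.42 in KP3. ITGA3, COL18A1, ITGB2 and COL9A3 are below 0 in all 4 columns.

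Within a line no test could be made, and differences of log2(FPKM + 1) past 1.5-fold were counted. With NEK7 siRNA 2 of the 38 were higher and 0 lower in CFPAC (4.61% and 4.82% of all genes), and 2 higher and 0 lower in KP3 (4.8% and 4.9%). With NEK6 siRNA 2 were higher and 1 lower in CFPAC (3.76% and 4.72%), and 2 higher and 0 lower in KP3 (4.87% and 4.42%). In both directions together, 9.43%, 9.7%, 8.48% and 9.29% of all genes passed, in that order, against 5.26%, 5.26%, 7.89% and 5.26% of the 38. With a pseudocount of 0.1 or with TMM-scaled counts more of the 38 and more of all genes passed, and with NEK6 siRNA in CFPAC the share of the 38, 18.4% under both, was then above the 17.6% and 10.5% of all genes. The median difference over the 38 lay between 0.00 and 0.08, and that over all genes between 0.00 and 0.03.

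On the log2(FPKM + 1) scale ITGA6 was the gene past 1.5-fold in both lines with NEK7 siRNA, and 0.638% of all genes were that much higher in both. It had 56.2 FPKM with NEK7 siRNA against 33 with control siRNA in CFPAC and 87.6 against 49.1 in KP3. The differences on the log2(FPKM + 1) scale were 0.75 and 0.82, and the joint fold change by edgeR was 0.77 (log2, SE 0.39, adjusted p = 0.586). With NEK6 siRNA it was at 64.6 FPKM in CFPAC, a difference of 0.95, and at 36.4 in KP3, a difference of -0.42. Opposite signs at least 2-fold apart between the lines were seen in 3.79% of all genes with NEK6 siRNA. On the same scale ITGB8 was the gene past 1.5-fold in both lines with NEK6 siRNA, as 0.665% of all genes were. It had 9.2 FPKM with NEK6 siRNA against 5.11 with control siRNA in CFPAC and 2.82 against 1.36 in KP3. The differences were 0.74 and 0.69, and the joint fold change by edgeR was 0.93 (log2, SE 0.36, adjusted p = 0.676). With NEK7 siRNA ITGB8 was at 4.16 FPKM in CFPAC and 2.9 in KP3, differences of -0.24 and 0.72.

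On the log2(FPKM + 1) scale COL5A2 was the gene past 2-fold within a line, with NEK7 siRNA in CFPAC, where 1.23% of all genes were that much higher. Past 2-fold either way were 2.7% of all genes in CFPAC and 2.63% in KP3 with NEK7 siRNA, and 2.57% in CFPAC and 2.8% in KP3 with NEK6 siRNA. It had 6.26 FPKM with NEK7 siRNA against 2.43 with control siRNA in CFPAC, on 3450 and 1240 counts (log2 difference 1.08), and 0.349 against 0.0999 in KP3, on 201 and 57 counts (0.29). That scale understates the change of low genes: as plain FPKM ratios, COL5A2 was at 2.57 in CFPAC and 3.5 in KP3 with NEK7 siRNA, and ITGB8 in KP3 at 2.13 with NEK7 and 2.07 with NEK6 siRNA. Other genes passed 2-fold on that measure too, some of them lower. With NEK6 siRNA, ITGA7 was at 0.499 in CFPAC and ITGA5 at 0.494 in KP3. Some rested on few counts, such as COL9A3 in KP3 at 0.322 with NEK6 siRNA and ITGB6 in KP3 at 4.96 with NEK7 and 4.27 with NEK6 siRNA. With NEK6 siRNA COL5A2 was at 2.18 FPKM in CFPAC and 0.324 in KP3, plain ratios of 0.898 and 3.24. Over both lines edgeR gave NEK7 siRNA a log2 fold change of 1.47 (SE 0.46, adjusted p = 0.509; DESeq2 adjusted p = 0.0892). ITGA2 had 12 FPKM with NEK6 siRNA against 23.1 with control siRNA in CFPAC, a difference of -0.90, and 30 with NEK7 siRNA, a difference of 0.36. COL17A1 was above its control in all 4 comparisons, with differences of 0.42 in CFPAC and 0.52 in KP3 with NEK7 siRNA and of 0.51 and 0.14 with NEK6 siRNA (edgeR adjusted p = 0.51 with NEK7 and 0.7 with NEK6 siRNA). So were COL1A1, COL6A2, COL4A5 and LAMB1, and the siRNAs of a line share its control library. LAMB1 was above by 0.01 to 0.08 only. In CFPAC COL4A5 was near 0, on 6 counts with NEK7 siRNA, 14 with NEK6 siRNA and 4 with control siRNA. The share of all genes with the same sign in all 4 was not counted.

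**Figure D5:**
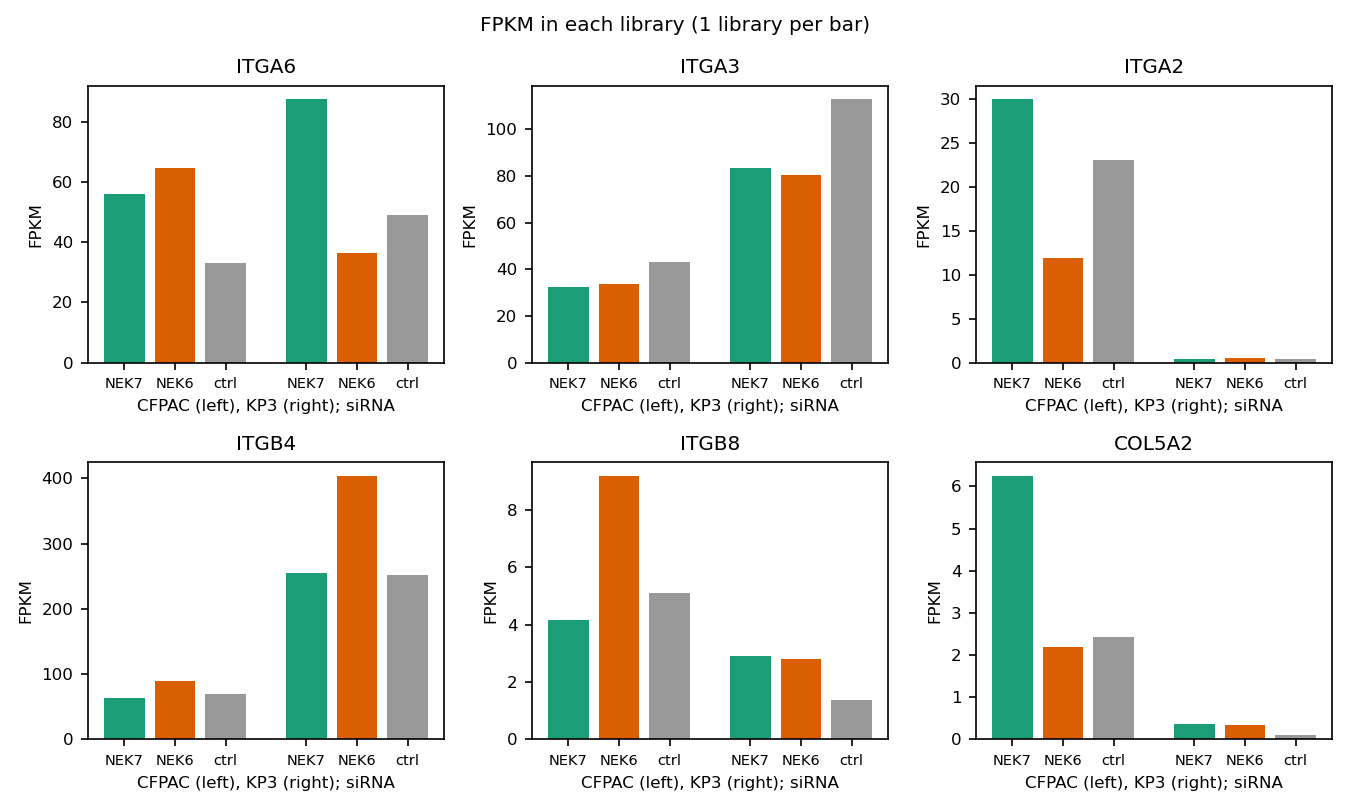
FPKM of 6 genes in each library, as bars from 0, with CFPAC left and KP3 right and NEK7 siRNA, NEK6 siRNA and control siRNA in that order. ITGA3 is highest with control siRNA in both lines, and COL5A2 with NEK7 siRNA in CFPAC, at 6.26 FPKM against 2.43.

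Of the 8 laminin chains, 0 passed 1.5-fold on the log2(FPKM + 1) scale in any of the 4 comparisons within a line, a count that the 8.48% to 9.7% of all genes past it does not set apart. LAMA3 differed by 0.38 with NEK7 siRNA in CFPAC and LAMA4 by 0.36 with NEK6 siRNA in CFPAC. LAMB1 differed by 0.01 to 0.08. COL1A1, COL1A2 and COL3A1 were above control in CFPAC with NEK7 siRNA (0.37, 0.37 and 0.44) and NEK6 siRNA (0.50, 0.34 and 0.47), while in KP3 they differed by 0.06, -0.08 and -0.09 with NEK7 and 0.14, 0.09 and 0.07 with NEK6 siRNA. Whether siRNA effects differ between lines could not be tested, since each line has 1 library per siRNA.

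Other genes of cell and matrix contact were counted by lists. Of 26 focal adhesion proteins tested, which couple integrins to actin, 16 were higher and 6 lower in CFPAC by edgeR (median log2 fold change 0.58, against 0.00 over all genes), beside the 29.3% higher and 27.1% lower of all genes against which this and the lists that follow are to be read. They included the tensin TNS4 (log2 fold change 8.03, SE 0.19), the adaptor TGFB1I1 (5.51, SE 0.29) and the kindlin FERMT1 (4.92, SE 0.15). In KP3, TNS4 had at most 0.0313 FPKM and TGFB1I1 at most 0.0572. Both were tested through CFPAC alone, so their direction was fixed by the choice. The list counts were not split by whether a gene reached 1 FPKM in both lines. Of 17 collagen processing enzymes, 5 were higher and 11 lower (median -0.61). The crosslinking oxidases LOXL4 and LOXL2 stood apart in opposite directions, LOXL4 at 48.1, 81.4 and 90.5 FPKM in CFPAC, against 0.205, 0.158 and 0.0885 in KP3, and LOXL2 at 1.22, 1.25 and 1.42 in CFPAC, against 33.1, 35.4 and 43.2 in KP3.

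Of 10 matrix and hemidesmosome partners, 3 were higher in CFPAC and 4 lower (median -0.28), with log2 fold changes of 3.81 (SE 0.17) for the matrix protein TNC, -1.67 (SE 0.10) for the proteoglycan AGRN and -1.42 (SE 0.13) for the laminin-related NTN4. Of 8 other matrix receptors, 3 were higher and 3 lower (median -0.06), with the syndecan SDC1 at 4.36 (SE 0.14) and the hyaluronan receptor CD44 at -2.23 (SE 0.14). Of 13 matrix proteases and inhibitors, 6 were higher and 5 lower (median 0.74), MMP7 at 6.10 (SE 0.27) and MMP24 at -5.82 (SE 0.16). The inhibitor TIMP4 had 6.26, 7.38 and 6.64 FPKM in CFPAC and was listed at 0 in all 3 KP3 libraries. LOXL4, TNC, MMP7 and TIMP4 reached 1 FPKM in CFPAC alone and MMP24 in KP3 alone, so their direction was fixed too. Of 7 latent TGF-beta genes, 4 were higher and 3 lower (median 1.08), with TGFBI at 4.54 (SE 0.21) and LTBP3 at -2.57 (SE 0.12). With either siRNA, edgeR called 0 genes of these 6 lists, as it did of all genes. DESeq2 called 3 focal adhesion genes, 1 partner and 1 other receptor with NEK7 siRNA, and 1 focal adhesion gene and 1 of the proteases and inhibitors with NEK6 siRNA, beside the 2.53% and 1.98% of all genes given above. The gene DAG1 stood in both the partner and the other receptor list, so the counts of these lists may share it.

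At the edge of the 1 FPKM level, COL4A6, COL1A2 and ITGAE were the lowest of the 38 by their highest library, at 1.27, 1.4 and 1.7 FPKM, and LAMA2, ITGAM and COL16A1 the highest of those left out, at 0.836, 0.798 and 0.738 FPKM.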

How the data were processed

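RNA of 6 libraries, 1 for each line and siRNA, was sequenced from oligo(dT)-selected libraries, per the labels' protocols. The submitters' processing notes name cutadapt 1.9, HISAT2 2.0.4, StringTie 1.3.4d and edgeR, with no role or order. No source used here gives the build. The authors deposited a raw count and an FPKM value per gene and library, per the file headers. The 14582 genes that reached 1 FPKM in any library were fitted with edgeR 4.0.16 in R 4.3.3 on the counts, with TMM normalization, additive terms for line and siRNA, and quasi-likelihood tests with 2 residual degrees of freedom, adjusted by Benjamini-Hochberg over all of them. Tested on simulated data, the fit found most large changes and few small ones, so a gene that did not pass may still have changed. The line and the siRNA tests share 1 spread, the part of an siRNA effect that differs between the lines. The p-values thus measure no spread between cultures of a condition. DESeq2 1.42.0 and limma 3.58.1 served as alternatives, and the closing section gives their effect. Within a line, log2(FPKM + 1) differences had no test. Intervals for ratios of few counts are exact binomial at 95% and cover counting error only. The genes, lists and alternatives were chosen with earlier results of these data known. The genes could be named, in full where they led a role, passed a test or moved 1.5-fold in both lines or 2-fold in 1, together with up to 3 genes per list. Full values of other genes, the neighbours and genes below 1 FPKM were added after their values were seen. Figures and tables were made with Python 3.11.15, pandas 2.3.3, scipy 1.17.1 and matplotlib 3.10.9. Values of 1 of the 38 genes are not reported here, and it stands in the counts only.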

Additional observations from a re-analysis of the deposited data

Results flagged for a closer look

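ITGA6 with NEK6 siRNA moved in opposite directions in the lines. The difference of log2(FPKM + 1) from control was 0.95 in CFPAC, on 64.6 FPKM against 33, and -0.42 in KP3, on 36.4 FPKM against 49.1, so the CFPAC value minus the KP3 value was 1.37. This difference was not tested, since each rests on 1 library per siRNA and line. Of all 14582 genes, 3.79% had opposite signs and lay at least 2-fold apart in the same comparison.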

How the results depend on the processing

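For CFPAC against KP3, all 30 calls among the 38 genes were the same with DESeq2, with limma on log2(FPKM + 1) and with DESeq2 size factors. Without the siRNA block, which pairs the lines' libraries in the fit reported, 7995 genes against 8223 were called and ITGB1 lost its call, while ITGB1 and LAMB2 lost theirs without a filter. Restricted to a mean of 5 FPKM or more, which 20 of the 38 reach, 4122 genes were called and 4 of the 38 were higher in CFPAC, since fewer genes were tested. Without each library in turn, 6422 to 6529 genes, 12 to 13 of the 38 higher and 13 to 15 lower were called. Values near 0 changed sign, LAMB3 to -0.0147 without a filter, -0.0333 by limma and -0.23 in the control libraries alone, where LAMA3 was at -0.11, COL1A1 at -0.12, COL1A2 at -0.11 and COL3A1 at -0.15. Without 1 library ITGA6 ran from -0.57 to 0.18, ITGAE from -0.14 to 0.18 and LAMB3 from -0.0534 to 0.11. The fitted log2 fold change moved over 1.5 times for genes with few counts in a line, to between 9.59 and 14.65 for COL5A3, 7.87 and 12.71 for COL28A1, -7.83 and -5.75 for COL4A6 and -11.70 and -10.63 for COL4A5, most without a NEK6 siRNA library, and to 5.12 for ITGB6 without either control library. For NEK7 siRNA DESeq2 called 369 genes and 1 of the 38, lower, and leaving out 1 library gave 0 to 1 genes. For NEK6 siRNA it called 288 genes, with 1 of the 38 higher and 1 lower. Genes of the 38 past 1.5-fold within a line numbered 4, 6, 7 and 5 with a pseudocount of 0.1 and 4, 5, 7 and 4 with TMM-scaled counts (NEK7 in CFPAC and KP3, NEK6 in CFPAC and KP3), against 2, 2, 3 and 2, and 1, 0, 0 and 0 passed 2-fold. Of all genes, 18.7%, 19.4%, 17.6% and 18.6% passed with that pseudocount and 11.4%, 12.3%, 10.5% and 11.5% with TMM-scaled counts. With a level of 5 FPKM, 24 genes qualified. The cause of these moves was not tested unless stated. No paired analysis by replicate number was possible because each line and siRNA has 1 library. The median log2 fold change of all genes stayed within 0.0349 of 0 under every scaling tried. Depth limits what can be said of genes with under 100 counts in a line.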
